A study of Mus musculus with 8 samples.

Results

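A set of 10 circadian clock genes, Arntl, Clock, Nr1d1, Nr1d2, Per1, Per2, Per3, Cry1, Dbp and Tef was followed through 8 RNA-seq libraries of mouse colon epithelial cells. The 10 genes were taken by symbol from a table of 24346 genes, and all 10 reached the mean of at least 1 FPKM that was asked of the 11537 genes tested. FPKM are fragment counts divided by transcript length and by the mapped fragments of the library. The cells came from untreated C57BL/6J mice of 4 genotypes, with 1 male and 1 female library each. Besides wild-type these were St6galnac6-/- (a sialyltransferase), B3gnt7-/- (an N-acetylglucosaminyltransferase) and B3galt5D116A (a galactosyltransferase, labelled with an amino acid substitution). Age, the time of day of collection, any batch and whether a library held 1 animal or a pool are not given in the sources used here. A p-value here therefore measures the spread between libraries, which may be technical.

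The clock is a transcriptional feedback loop that runs in nearly every cell, the intestinal epithelium included. Arntl (BMAL1) and Clock form the activator that binds E-boxes and drives the Per and Cry genes, the REV-ERB genes Nr1d1 and Nr1d2, and the output factors Dbp and Tef. PER and CRY proteins then block the activator, and REV-ERB proteins repress Arntl through ROR elements. Transcripts of Arntl therefore peak when those of Dbp and the Per genes are low, and the level of each depends on when in the day a tissue is taken.

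The promoters of some clock genes carry letters that match the elements through which the loop acts. Promoters, from 250 bases before to 50 bases after a start site, were taken from RefSeq (GRCm38.p6, the build also called mm10) and matched 9 of the 10 genes, with 14 promoters; Per2 was not matched. Both strands were searched for the E-box CACGTG, the D-box TTATGTAA, to which DBP and TEF bind, and the ROR/REV-ERB element. The E-box stood in 7.15% of all 32851 promoters of this length, the D-box in 0.938% and the ROR/REV-ERB element in 0.384%. The E-box was found in 4 of the 14 promoters (of Per1, Cry1 and, in 2 promoters, Tef), the D-box in 1 (Per3) and the ROR/REV-ERB element in 1 (Arntl). None of the 3 was found in the windows of Dbp, Nr1d1, Nr1d2 or Clock. A match describes these letters in this window and not a bound site. The promoters of 4 genes are shown 5′ to 3′, with the matches in capitals, chosen because they hold a match to one of the 3 elements and their genes are described below as highest or lowest in the same libraries. Cry1, described below as lowest in these libraries, also holds an E-box, 60 bases before its start site, and is not shown. Other genes so described, Dbp among them, had no match or no promoter to search. The Arntl window (chr7:113207261-113207560, plus strand) holds the ROR/REV-ERB element 27 bases after the start site, the Per3 window (chr4:151044616-151044915, minus strand) D-boxes 205 and 158 bases before it, the Tef window (chr15:81802423-81802722, plus strand) an E-box 127 bases before it, and the Ciart window (chr3:95882179-95882478, minus strand) 3 E-boxes, the nearest of them 58 and 44 bases before it. Ciart, a repressor of the activator pair, is not among the 10 genes.
Arntl: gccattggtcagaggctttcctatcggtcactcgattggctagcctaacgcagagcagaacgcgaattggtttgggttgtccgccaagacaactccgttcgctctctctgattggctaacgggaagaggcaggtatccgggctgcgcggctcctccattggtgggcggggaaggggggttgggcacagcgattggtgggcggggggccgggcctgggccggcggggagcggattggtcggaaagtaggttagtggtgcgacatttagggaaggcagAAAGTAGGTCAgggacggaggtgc
Per3: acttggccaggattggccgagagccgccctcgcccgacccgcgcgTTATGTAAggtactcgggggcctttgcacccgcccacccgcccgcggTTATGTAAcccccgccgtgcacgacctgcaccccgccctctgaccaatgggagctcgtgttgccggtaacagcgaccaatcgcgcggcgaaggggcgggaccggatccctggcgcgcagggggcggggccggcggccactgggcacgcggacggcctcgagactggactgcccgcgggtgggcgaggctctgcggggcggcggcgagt
Tef: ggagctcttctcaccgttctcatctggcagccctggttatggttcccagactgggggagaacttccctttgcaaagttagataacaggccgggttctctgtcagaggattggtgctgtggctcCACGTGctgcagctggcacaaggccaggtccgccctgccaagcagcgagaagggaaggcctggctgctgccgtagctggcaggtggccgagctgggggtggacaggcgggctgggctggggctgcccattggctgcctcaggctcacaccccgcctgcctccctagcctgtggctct
Ciart: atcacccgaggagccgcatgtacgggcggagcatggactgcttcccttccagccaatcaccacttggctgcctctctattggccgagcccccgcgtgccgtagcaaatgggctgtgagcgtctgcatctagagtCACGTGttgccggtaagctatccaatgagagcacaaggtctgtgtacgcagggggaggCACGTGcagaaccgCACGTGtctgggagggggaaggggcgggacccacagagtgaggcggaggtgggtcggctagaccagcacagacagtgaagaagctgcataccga

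The libraries held epithelium. Summed FPKM of 7 epithelial markers ran from 6295 to 8423, against 2.87 to 8.37 for 5 leukocyte markers and 0.282 to 0.448 for 3 markers of enteric neurons and glia. Relative sequencing depth, estimated from the spacing of FPKM below 0.15, was 1 to 1.46 times that of the wild-type male library, and 1.22 and 1.18 in the St6galnac6-/- male and B3gnt7-/- female libraries, which the clock genes set apart below. St6galnac6 transcript was lowest in its own mutant, at 218 and 232 FPKM against 343 to 495 elsewhere, and B3gnt7 in its own, at 68.8 and 142 FPKM against 154 to 266. These are whole-gene values and do not show which exons were read.

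Of the 10 genes, Dbp had the widest fold range between libraries. Dbp (chr7:45705088-45710203 on mm10), a PAR bZIP transcription factor and one of the most strongly cycling transcripts of many tissues, stood at 3.08 FPKM in the wild-type male and 7.64 in the wild-type female library. In the St6galnac6-/- pair it was 14.2 and 2.83, in the B3galt5D116A pair 3.08 and 1.33, and in the B3gnt7-/- pair 3.69 and 17.7, with the male first here and below. The highest values were those of the St6galnac6-/- male and the B3gnt7-/- female, which exceeded the other library of their own genotype 5.02-fold and 4.8-fold. From the lowest to the highest library Dbp spanned 13.3-fold. Dbp shares 539 of its 2993 exon bases with Sphk2 on the opposite strand, and whether the counting used strand is not given in the sources used here. Sphk2 had a narrower range and shared the order of Dbp in part. It was lowest in the B3galt5D116A female, at 25 FPKM, and highest in the wild-type and B3gnt7-/- females, at 32.3. In the St6galnac6-/- male it was 28.9 FPKM, below the wild-type male at 31.4. Its part in the Dbp values was not tested.

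Tef (chr15:81802421-81826863), which encodes a related factor that binds the same D-box, ordered the libraries much as Dbp did. Its FPKM were 8.55 and 14.0 in the wild-type pair, 18.6 and 5.86 in the St6galnac6-/- pair, 8.43 and 5.76 in the B3galt5D116A pair, and 9.01 and 25 in the B3gnt7-/- pair. The same libraries were highest, the wild-type female came next, and both St6galnac6-/- and B3galt5D116A females lay below every other library.

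Among the repressors, Per2 and Per3 had the same libraries on top. Per2 (chr1:91415982-91459324), a PERIOD protein needed for rhythm, was at 4.14 and 3.97 FPKM in the wild-type pair, 6.68 and 2.99 in the St6galnac6-/- pair, 3.12 and 2.33 in the B3galt5D116A pair, and 2.79 and 10.3 in the B3gnt7-/- pair. Per3 (chr4:151003652-151044665), its paralogue, was at 3.28 and 4.45, 5.52 and 2.74, 4.17 and 1.88, and 2.87 and 10.7 FPKM in the same order. For both genes the wild-type libraries lay between the B3gnt7-/- male and the St6galnac6-/- male. Per1 (chr11:69095217-69109960) moved in 1 library. It ran from 7.06 to 8.62 FPKM in 7 libraries and reached 11.3 in the B3gnt7-/- female.

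Cry1 (chr10:85131700-85185064), a cryptochrome whose transcript peaks later than those of the Per genes, did not share their order. Its FPKM were 13.6 and 6.41 in the wild-type pair, 5.01 and 6.75 in the St6galnac6-/- pair, 5.83 and 6.64 in the B3galt5D116A pair, and 7.48 and 3.77 in the B3gnt7-/- pair. The wild-type male stood alone at the top, and the B3gnt7-/- female and St6galnac6-/- male were lowest.

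The activators differed from each other. Arntl (chr7:113207465-113314126) was at 22.9 and 19.8 FPKM in the wild-type pair, 10 and 19.4 in the St6galnac6-/- pair, 22.3 and 23.7 in the B3galt5D116A pair, and 19.3 and 11.5 in the B3gnt7-/- pair. Of the 8 libraries, 6 lay within 19.3 to 23.7 FPKM, and the St6galnac6-/- male and B3gnt7-/- female were well below them. Clock (chr5:76209868-76304792), whose transcript cycles little in most tissues, ran only from 12.7 FPKM in the B3galt5D116A female to 18.3 in the St6galnac6-/- female, a 1.44-fold span, and was 16.8 and 15.3 FPKM in the libraries where Arntl was low.

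**Figure D1:**
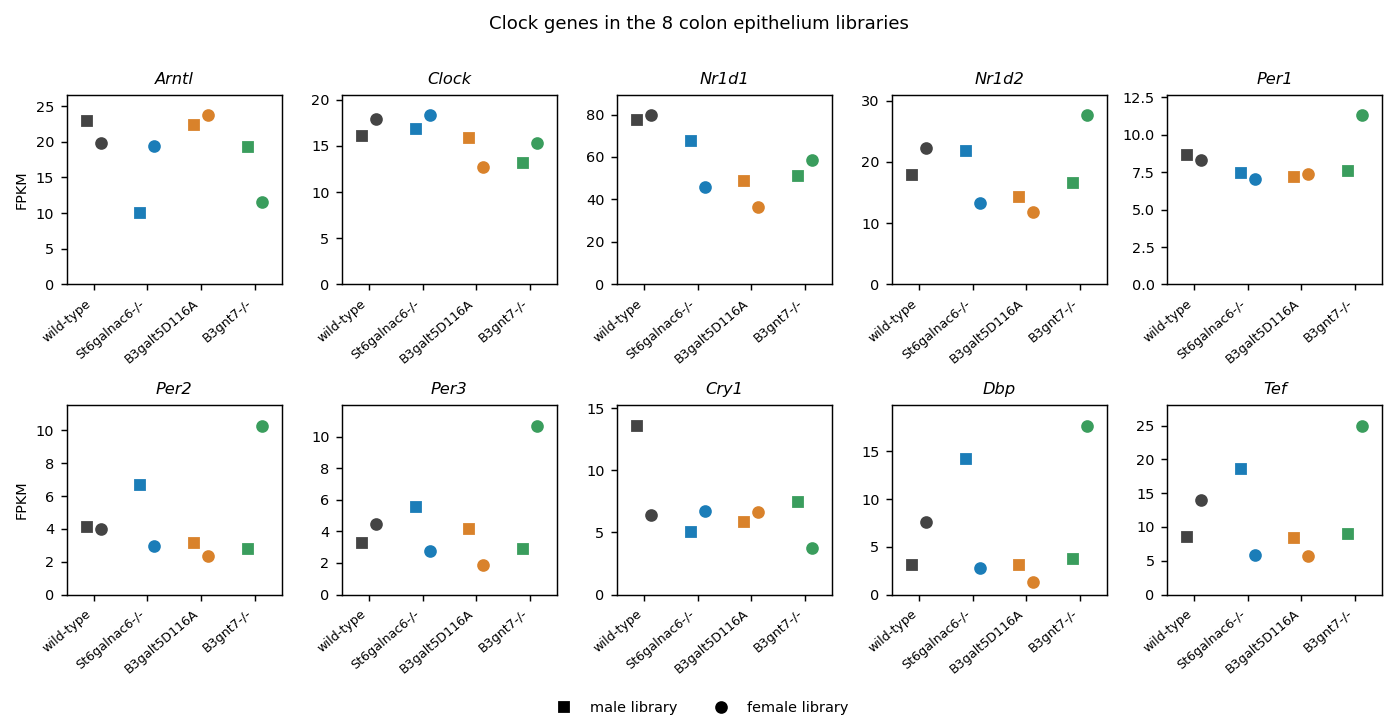
FPKM of the 10 clock genes (1 panel per gene, axes from 0) in the 8 libraries, grouped by genotype along the horizontal axis, with squares for male and circles for female libraries. The St6galnac6-/- male and B3gnt7-/- female points are highest for Per2, Per3, Dbp and Tef and lowest for Arntl and Cry1, while Nr1d1 is highest in both wild-type libraries.

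Thus 4 of the 10 genes (Per2, Per3, Dbp and Tef) were higher in the St6galnac6-/- male and B3gnt7-/- female libraries than in all 6 others, where 3.85% of tested genes were, and 2 of 10 (Arntl and Cry1) were lower than in all 6 others, where 4.17% were. These libraries were picked out from these same values, so the counts describe the pattern and carry no test. They differ in genotype and in sex, and the other library of each genotype lay with the wild-type and B3galt5D116A libraries. Dbp FPKM divided by Arntl FPKM was 1.42 in the St6galnac6-/- male and 1.53 in the B3gnt7-/- female, and 0.0562 to 0.387 in the other 6. The wild-type female had the highest ratio of those 6 and the B3galt5D116A female the lowest.

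**Figure D2:**
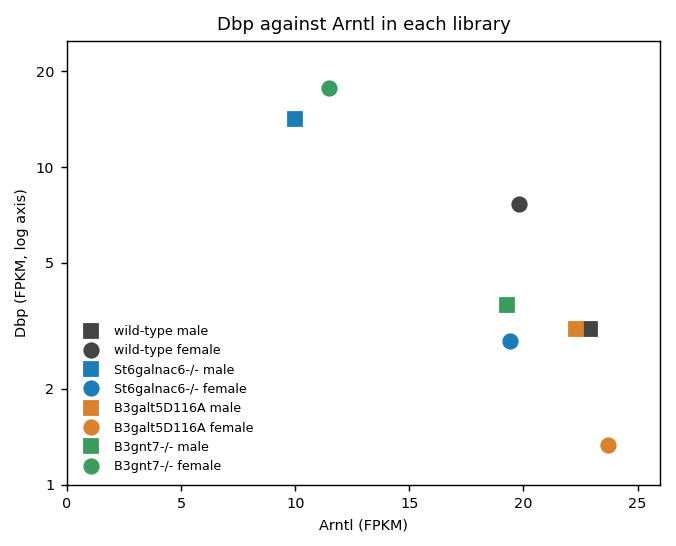
Dbp FPKM (vertical log axis) against Arntl FPKM (horizontal axis) for each of the 8 libraries, coloured by genotype, with squares for males and circles for females. The St6galnac6-/- male and B3gnt7-/- female lie at the upper left, with Arntl at 10 and 11.5 FPKM, and the other 6 libraries lie at 19.3 FPKM of Arntl or more.

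To set the activators against the rest within each library, the mean log2(FPKM + 1) of Arntl and Clock was subtracted from that of the 8 repressor and output genes. The difference was -0.04 in the St6galnac6-/- male and 0.24 in the B3gnt7-/- female, and lay between -1.43 (B3galt5D116A female) and -0.71 (wild-type female) in the other 6. By genotype it was -0.81 ± 0.14 in wild-type, -0.68 ± 0.90 in St6galnac6-/-, -1.30 ± 0.18 in B3galt5D116A and -0.33 ± 0.80 in B3gnt7-/- (mean ± SD, n = 2 each). The spread within St6galnac6-/- and within B3gnt7-/- was larger than any difference between those genotypes and wild-type. Because the libraries fall into separate sets, Arntl was correlated with each of the other 9 genes only over the 6 libraries at 19.3 FPKM of Arntl or more. Pearson's r with Dbp was -0.634 (exact permutation p = 0.151, 0.797 after Benjamini-Hochberg adjustment over 9 relations) and Spearman's rho was -0.543 (exact permutation p = 0.297, adjusted p = 0.903). The other 8 Pearson coefficients ran from -0.408 (Nr1d2) to 0.286 (Cry1), each with an adjusted exact permutation p of 0.797. Taking these 6 libraries narrows Arntl to 19.3 to 23.7 FPKM, and over that range no relation passed the test. A missed threshold over 6 libraries does not show that Arntl and the other genes are unrelated there.

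The REV-ERB genes parted from each other. Nr1d2 (chr14:18204054-18239127) was at 17.8 and 22.2 FPKM in the wild-type pair, 21.8 and 13.3 in the St6galnac6-/- pair, 14.2 and 11.8 in the B3galt5D116A pair, and 16.5 and 27.6 in the B3gnt7-/- pair. Its order was near that of Dbp, with the B3gnt7-/- female highest, but the wild-type female lay above the St6galnac6-/- male. Nr1d1 (chr11:98767932-98775333), the nuclear receptor REV-ERBα, was at 77.5 and 79.6 FPKM in the wild-type pair, 67.3 and 46.1 in the St6galnac6-/- pair, 48.9 and 36.4 in the B3galt5D116A pair, and 51.1 and 58.4 in the B3gnt7-/- pair. It was the 1 clock gene of 10 with all 6 mutant libraries below both wild-type libraries, an order held by 8.32% of tested genes. Genotype means were 78.6 ± 1.49 FPKM in wild-type, 56.7 ± 15.0 in St6galnac6-/-, 42.6 ± 8.81 in B3galt5D116A and 54.8 ± 5.2 in B3gnt7-/- (SD, n = 2 each).

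Differences between genotypes were tested with limma, a linear model with a spread shared across genes, on log2(FPKM + 1) of all 11537 genes with genotype and sex as terms. The 3 comparisons with wild-type share the same wild-type libraries. Nr1d1 differed by -0.49 on the log2 scale in St6galnac6-/- (SE 0.19, limma adjusted p = 0.529). In B3galt5D116A the difference was -0.88 (SE 0.19, limma adjusted p = 0.268), and in B3gnt7-/- it was -0.52 (SE 0.19, limma adjusted p = 0.657). For the mean of the 3 mutants against wild-type it was -0.63 (SE 0.16, limma adjusted p = 0.237). The values were lower in 6 of 6 mutant libraries but did not pass the adjusted threshold of 0.05. Without the St6galnac6-/- male and B3gnt7-/- female libraries, a setting chosen after seeing the data, the mean of the mutants lay at -0.75 with a limma adjusted p of 0.0745. Nr1d1 shares 263 of its 3077 exon bases with Thra, a thyroid hormone receptor gene on the opposite strand. Thra was likewise lower in the 6 mutant libraries, at 14.0 to 17.9 FPKM against 20.5 and 23.1 in wild-type; its part in the Nr1d1 values was not tested.

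With that test, 0 of the 10 clock genes passed an adjusted p under 0.05 in any comparison. The share of all tested genes that passed was also small, at 0.0867% for St6galnac6-/- against wild-type, 0.078% for B3galt5D116A, 0.052% for B3gnt7-/- and 0.182% for the mean of the mutants. Between mutants it was 0.026% for St6galnac6-/- against B3galt5D116A, 0.0433% for St6galnac6-/- against B3gnt7-/- and 0.00867% for B3galt5D116A against B3gnt7-/-, and between males and females 0.052%. At an unadjusted limma p under 0.05, 1 of 10 clock genes (Nr1d1) was called in each comparison with wild-type, beside 9.04% of tested genes for St6galnac6-/-, 11.7% for B3galt5D116A, 7.17% for B3gnt7-/- and 11.3% for the mean of the mutants. A share of 1 in 10 is near that background. In the other comparisons 0 of 10 were called at the unadjusted threshold, beside 3.51% for St6galnac6-/- against B3galt5D116A, 3.81% for St6galnac6-/- against B3gnt7-/-, 4.2% for B3galt5D116A against B3gnt7-/- and 1.66% for sex.

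The limits of these comparisons came from the spread inside genotypes. Dbp differed from wild-type by 0.36 on the log2 scale in St6galnac6-/-, with a 95% interval of -1.63 to 2.35 (limma adjusted p = 0.933). Leaving out the St6galnac6-/- male turned that value to -1.01, and leaving out the female raised it to 1.74. In B3gnt7-/- the Dbp difference was 0.66 (-1.33 to 2.65, limma adjusted p = 0.914), and -0.63 without the B3gnt7-/- female. The B3galt5D116A libraries showed the smallest spread among mutants for Dbp, and there the difference was -0.94 (-2.93 to 1.05, limma adjusted p = 0.653). Each of these intervals reaches past 1 on the log2 scale in both directions, and a missed threshold does not show that genotypes were alike.

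**Figure D3:**
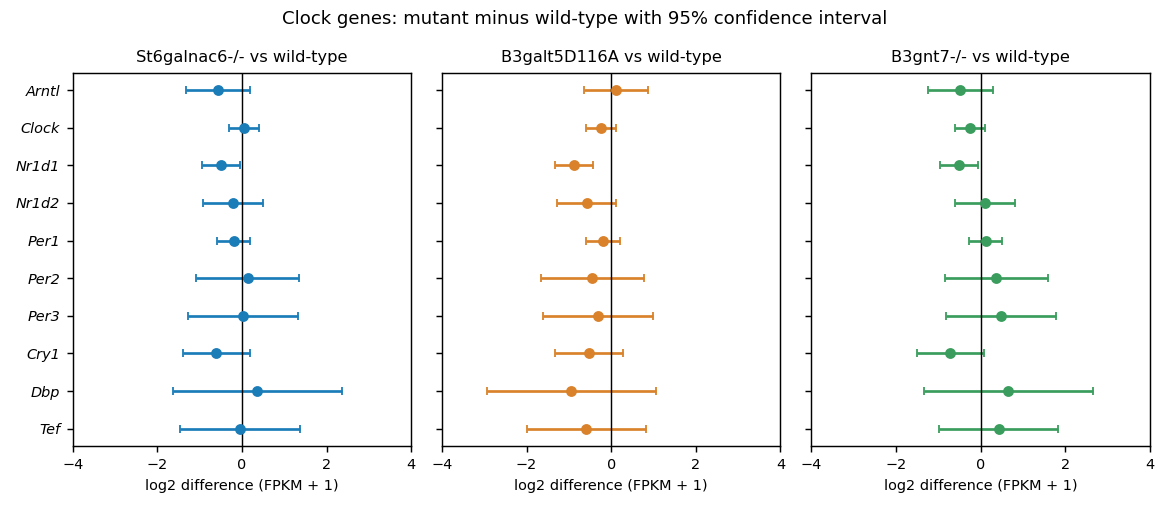
Differences from wild-type on the log2(FPKM + 1) scale for the 10 clock genes in each mutant, from the limma fit of all 8 libraries, with bars for the 95% confidence interval. The Nr1d1 bar lies below 0 in each panel before adjustment over all genes, and the Dbp bar is the widest, from -1.63 to 2.35 in St6galnac6-/-.

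B3galt5D116A had the most uniform direction. Of its 10 clock genes, 9 had a negative difference from wild-type (49.6% of tested genes), with a median of -0.49 on the log2 scale against 0.00 over all tested genes, and Arntl alone was positive, at 0.11. Both B3galt5D116A libraries lay below both wild-type libraries for 6 of 10 clock genes (Clock, Nr1d1, Nr1d2, Per1, Per2 and Tef), as for 25.3% of tested genes. In St6galnac6-/- this held for 3 of 10 (Arntl, Nr1d1 and Per1; 23.6% of tested genes), with 6 of 10 differences negative (49.3% of tested genes) and a median of -0.12. In B3gnt7-/- it held for 3 of 10 (Arntl, Clock and Nr1d1; 18.6% of tested genes), with 4 of 10 negative (52% of tested genes) and a median of 0.11. The counts for St6galnac6-/- and B3gnt7-/- are near those shares. The 10 genes share a feedback loop and are not independent of each other.

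The residual SD of log2(FPKM + 1), which is what genotype and sex leave unexplained, put a size on the within-genotype spread. Its median over all tested genes was 0.149. Dbp was at 1.27 (the 99.6th percentile), Tef at 0.90 (99.4th), Per3 at 0.82 (99.2nd) and Per2 at 0.76 (99.1st). Cry1, Arntl and Nr1d2 lay between 0.43 and 0.48, at the 95.9th to 97.2nd percentile. Nr1d1, Per1 and Clock were closer to other genes, at 0.25, 0.20 and 0.17 (81.5th, 68.9th and 57.6th percentile).

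**Figure D4:**
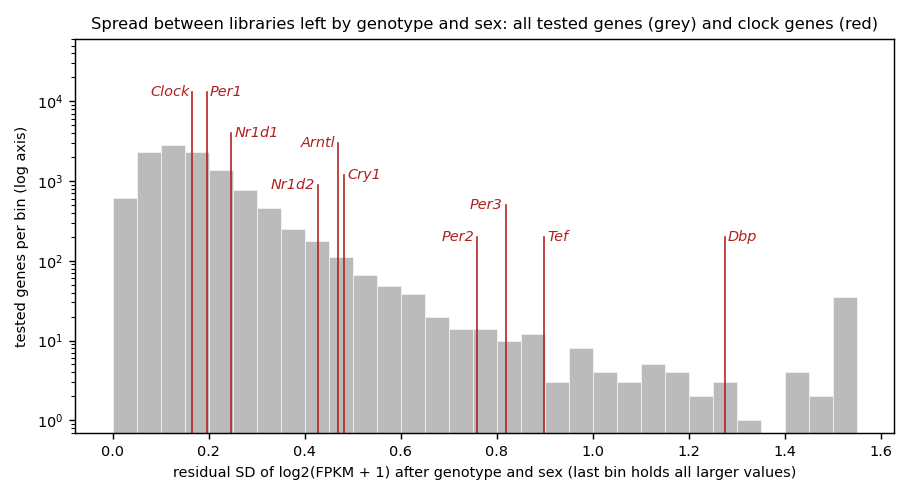
Histogram of the residual SD of log2(FPKM + 1) after genotype and sex (horizontal axis, last bin holding all larger values) over all 11537 tested genes in grey, with the number of genes per bin on a log axis. Red lines mark the 10 clock genes, with Clock at 0.17 near the bulk and Dbp at 1.27 in the tail.

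Clock genes beyond the 10 gave the same order of libraries in part. Of a list of 9 other transcriptional clock genes, 6 were tested, and Rora, Hlf and Bhlhe41 were below 1 FPKM on average. Ciart, named here after its values were seen, was at 2.42 and 1.48 FPKM in the wild-type pair, 5.05 and 2.1 in the St6galnac6-/- pair, 1.55 and 2.13 in the B3galt5D116A pair, and 2.28 and 5.88 in the B3gnt7-/- pair. Its highest libraries were those of Dbp, and its promoter is the one printed above with 3 E-boxes. Nfil3, the bZIP repressor that competes with DBP and TEF for the D-box, was at 34.2 and 24.9, 13.9 and 18.7, 16.3 and 19.7, and 22.5 and 6.22 FPKM in the same order. Its lowest libraries were the B3gnt7-/- female and the St6galnac6-/- male, opposite to Dbp. Npas2, which can stand in for Clock, was lowest in the St6galnac6-/- male at 4.95 FPKM and next in the B3gnt7-/- female at 6.02, against 6.62 to 9.71 elsewhere. Of the 6 tested genes, 0 passed an adjusted limma p under 0.05 in any comparison. Npas2 and Nfil3, 2 of the 6 tested genes, were below both wild-type libraries in all 6 mutant libraries, beside 8.32% of all tested genes, with differences of -0.42 (limma adjusted p = 0.456) and -0.90 (limma adjusted p = 0.433) for the mean of the mutants. Cry2 and the E-box repressor Bhlhe40 did not separate the same libraries, and had differences of -0.42 (limma adjusted p = 0.431) and -0.29 (limma adjusted p = 0.414).

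**Figure D5:**
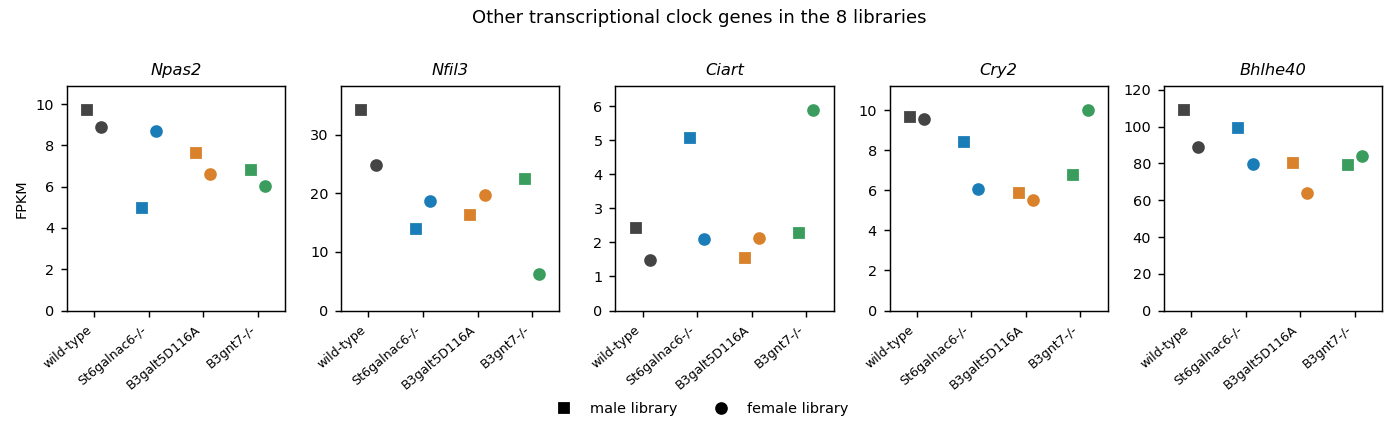
FPKM of 5 other transcriptional clock genes (1 panel per gene, axes from 0) in the 8 libraries by genotype, with squares for male and circles for female libraries. Ciart is highest in the St6galnac6-/- male and B3gnt7-/- female (5.05 and 5.88 FPKM), and Npas2 and Nfil3 are lowest there.

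The protein turnover arm of the clock was flatter. Of 9 genes 8 were tested and 0 passed an adjusted limma p under 0.05 in any comparison. Fbxw11, a ligase subunit for PER proteins, was lower in all 6 mutant libraries, at 18.1 to 20.4 FPKM against 20.8 and 21.8. Usp2, a deubiquitinase, ran from 4.19 to 8.20 FPKM, and Csnk1d, a kinase of PER proteins, from 44.7 to 53.8 FPKM.

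A further list held 9 genes that respond to the clock or to glucocorticoids, which carry time-of-day signals to peripheral tissues. Of these 8 were tested and 0 passed an adjusted limma p under 0.05 in any comparison. Klf9, a transcription factor under both controls, measured 21.2 and 22.2 FPKM in the wild-type pair and 11.7 to 17.2 in the 6 mutant libraries, a difference of -0.52 for their mean (SE 0.13, limma adjusted p = 0.24). It was the 1 gene of the 8 tested with all 6 mutant libraries below both wild-type libraries, beside 8.32% of all tested genes. A share of 1 in 8 is near that background. Fkbp5, a glucocorticoid-induced co-chaperone, did not follow Dbp. It was highest in the B3galt5D116A female at 107 FPKM and the B3gnt7-/- male at 83.2, and was 51.0 and 47.9 in the St6galnac6-/- male and B3gnt7-/- female. Por ran from 54.1 to 77.6 FPKM and Tsc22d3 from 42.4 to 66.1. In the St6galnac6-/- male and B3gnt7-/- female, 0 of the 8 tested genes were above the other 6 libraries, beside 3.85% of all tested genes. There 2 of the 8 were below the other 6 libraries, opposite to Dbp, beside 4.17% of all tested genes. These counts carry no test.

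Of the immediate early genes, whose transcripts rise quickly after a stimulus or handling, Nr4a1 (an orphan nuclear receptor) fell in each mutant and Fosb and Atf3 (bZIP factors) for the mean of the mutants. Of the 9 genes of the list, all tested, 7 had all 6 mutant libraries below both wild-type libraries, beside 8.32% of all tested genes. The Nr4a1 differences were -1.45, -1.46 and -1.31 in St6galnac6-/-, B3galt5D116A and B3gnt7-/- (limma adjusted p = 0.0266, 0.0185 and 0.0372). For the mean of the mutants Fosb fell by 1.05 and Atf3 by 1.23 on the log2 scale (limma adjusted p = 0.047 for each). Junb lay at -0.70 for the mean of the mutants (limma adjusted p = 0.12). These calls needed both wild-type libraries. Without the wild-type male the limma adjusted p for Nr4a1 was 0.422, 0.447 and 0.565 in St6galnac6-/-, B3galt5D116A and B3gnt7-/-, and without the wild-type female 0.382, 0.377 and 0.562, while its differences stayed between -1.30 and -1.47. For the mean of the mutants the limma adjusted p of Fosb and Atf3 was 0.9 without the wild-type male, and was 0.498 and 0.36 without the wild-type female. Leaving out either St6galnac6-/- library also ended the calls of Nr4a1 in each mutant (limma adjusted p = 0.0861 to 0.271) and of Fosb and Atf3 (0.157 to 0.174). Thus 7 of 9 held the order of libraries seen for Nr1d1, and 0 of 9 had the St6galnac6-/- male and B3gnt7-/- female both above or both below the other 6. Their part in the Nr1d1 values was not tested.

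Markers of other cell states and types were set beside the clock genes, and none had the library order of Dbp. Summed FPKM of 3 proliferation markers were 65.8 and 59.4 in the St6galnac6-/- male and B3gnt7-/- female, 50 and 55.6 in the wild-type pair, and 94.3 to 122 in the other 4 libraries. That order was nearly the reverse of the order of Nr1d1. Nr1d1 was 67.3 and 58.4 FPKM in the St6galnac6-/- male and B3gnt7-/- female, 77.5 and 79.6 in the wild-type pair, and 36.4 to 51.1 in the other 4. Summed FPKM of 5 stroma and muscle markers were 14.3 in the B3gnt7-/- female and 3.82 to 5.92 in the other 7, the St6galnac6-/- male included at 4.41. The leukocyte sum was likewise highest in the B3gnt7-/- female, at 8.37, and was 3.76 in the St6galnac6-/- male. The sum of 3 colonocyte markers, most of it Car1, was highest in the B3galt5D116A female at 17119, where Dbp was lowest. It was 5718 to 12641 in the other 7, and lowest in the St6galnac6-/- female, where Dbp was next lowest. In a bulk library fewer cells of a type and less RNA per cell cannot be told apart. Their part in the clock gene differences was not tested. Time of collection is not among the labels, so a difference in sampling time cannot be told apart from other differences between single libraries. What the values show is the order itself: Dbp, Tef, Per2, Per3 and Ciart high where Arntl, Npas2, Cry1 and Nfil3 were low, in 1 library of each of 2 genotypes.

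Genes with the profile most like that of Dbp over the 8 libraries were ranked by Pearson's r of log2(FPKM + 1), as a description over libraries that fall into separate sets. Of the 11536 other tested genes Tef ranked first at 0.977, followed by Hmbox1 (0.976), Bbs4 (0.975), Ptprs (0.973) and Zmym6 (0.963). The size of these profiles differed: Hmbox1 ran from 5.05 FPKM in the B3galt5D116A female to 7.84 in the B3gnt7-/- female, where Tef ran from 5.76 to 25. Nr1d2 ranked 14th, Per2 24th and Per3 29th. For Arntl the 5 genes most alike were 2810428I15Rik (0.956), Ttll12 (0.953), Tssc1 (0.942), Nabp2 (0.936) and Ywhaz (0.929), and counted from the lowest r Dbp ranked 12th and Ciart 17th.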

How the data were processed

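RNA of 8 libraries was measured with a stranded mRNA kit, per the labels' protocols. The authors deposited FPKM per gene symbol, per the file headers; Cuffdiff 2.2.1, TopHat2 2.1.1, SAMtools 0.1.18, Bowtie2 2.2.8 and the build mm10 are named in the submitters' processing notes, and how libraries were scaled is not given in the sources used here. No counts are in these tables, so depth is relative only. The members and gene lists were chosen with earlier results of these data known.

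Values were taken as log2(FPKM + 1). Genes averaging at least 1 FPKM were fitted with limma 3.58.1 in R 4.3.3 (eBayes with trend), with genotype and sex as terms, 3 residual and 4.02 prior degrees of freedom, two-sided tests and Benjamini-Hochberg adjustment over 11537 genes; the test was checked on simulated data. All 10 members are named; of each other list, those past the threshold against wild-type, filled up to 4 by smallest p for the mean of the mutants, and the 5 genes most like Dbp and Arntl. The correlations with Arntl had been planned over 8 libraries and were taken over 6, since the libraries fall into separate sets. Labels carry no replicate numbers; replicate 1 is the male library. Gene positions and exon overlaps are from GENCODE M21. Alternatives were pseudocounts of 0.1 and 5, other filters and scalings, no sex term, fits of 4 libraries and each library left out. Values of some genes are not reported here.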

Additional observations from a re-analysis of the deposited data

Results flagged for a closer look

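Each of the 10 clock genes was looked at in each of the 3 mutants. For 14 of these pairs of gene and mutant the male and the female library differed from the wild-type library of their sex in opposite directions. The share of all tested genes with opposite directions was not computed, so the count does not set the clock genes apart. Some differences were near 0, such as 0.002 for Dbp in the B3galt5D116A male. Each value rests on 1 library against 1, on the log2(FPKM + 1) scale, and whether the direction depends on sex was not tested, since each sex and genotype had 1 library. The 3 mutants share the wild-type libraries.

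In St6galnac6-/- 5 of these genes were above wild-type in males and below it in females, with 1.90 and -1.17 for Dbp, 1.04 and -1.13 for Tef, 0.61 and -0.54 for Per3, 0.58 and -0.32 for Per2 and 0.28 and -0.69 for Nr1d2. Cry1 had the opposite order, with -1.28 in males and 0.064 in females. In B3gnt7-/- Per1, Per2, Per3 and Nr1d2 were below wild-type in males and above it in females. The values were -0.44 and 1.19 for Per2, -0.14 and 1.10 for Per3, -0.17 and 0.40 for Per1 and -0.10 and 0.30 for Nr1d2. In B3galt5D116A males and females differed from wild-type by 0.27 and -0.92 for Per3, 0.002 and -1.89 for Dbp, -1.10 and 0.044 for Cry1 and -0.036 and 0.25 for Arntl.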

How the results depend on the processing

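None of the 10 clock genes passed an adjusted limma p under 0.05 under any alternative (109 pairs of comparison and setting), or in 1394 tests of single clock genes over all comparisons and settings. With 3 residual degrees of freedom a log2 difference needed to be large against the spread inside genotypes, and that spread was widest for Dbp, Tef, Per2 and Per3. Of the alternative values of single clock genes against wild-type, 57 changed sign and 493 did not, with none past the threshold; the cause was not tested beyond what each library left out shows. Of values of Nr4a1, Fosb, Atf3 and Junb, 46 kept their side of the threshold, 33 lost a call, and Junb gained one in 2, under quantile normalization and without the B3gnt7-/- male. For St6galnac6-/-, leaving out 1 library gave -1.15 to 0.011 for Arntl, -0.029 to 0.11 for Clock, -0.67 to 0.26 for Nr1d2, -0.54 to 0.81 for Per2, -0.55 to 0.62 for Per3, -1.01 to 1.74 for Dbp, -1.06 to 0.97 for Tef. Without both the St6galnac6-/- male and the B3gnt7-/- female, the differences were -0.25 for Per2, -0.24 for Per3, -0.70 for Dbp. For B3galt5D116A, leaving out 1 library gave -0.039 to 0.26 for Arntl, -0.94 to 0.29 for Per3. For B3gnt7-/-, leaving out 1 library gave -0.35 to 0.56 for Nr1d2, -0.16 to 0.39 for Per1, -0.63 to 1.38 for Per2, -0.54 to 1.495 for Per3, -0.63 to 1.94 for Dbp, -0.48 to 1.34 for Tef. Without both the St6galnac6-/- male and the B3gnt7-/- female, the differences were -0.24 for Nr1d2, -0.15 for Per1, -0.50 for Per2, -0.44 for Per3, -0.27 for Dbp, -0.22 for Tef. For the mean of the mutants, leaving out 1 library gave -0.20 to 0.015 for Per1, -0.32 to 0.35 for Per2, -0.28 to 0.40 for Per3, -0.65 to 0.70 for Dbp, -0.50 to 0.36 for Tef. Without both the St6galnac6-/- male and the B3gnt7-/- female, the differences were -0.40 for Per2, -0.34 for Per3, -0.64 for Dbp. For St6galnac6-/-, Per3 was -0.012 under quantile normalization. For the mean of the mutants, Per2 was -0.009 and Dbp -0.035 with a pseudocount of 0.1, and Per2 was -0.001 and Dbp -0.003 under quantile normalization.

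The difference between repressor and output genes and activators moved with a pseudocount of 5, to -0.55 in wild-type and -0.89 in B3galt5D116A, as a larger pseudocount shrinks low genes. The 22 other values stayed within 1 SD of the genotype's libraries. Values with 1 of the libraries of a genotype left out must do so by arithmetic and show no stability. In St6galnac6-/- the value was -1.31 without the male and -0.04 without the female. Correlations with Arntl without single libraries were not run, since 5 libraries are too few. The labels give no replicate numbers, so no replicate block was fitted; libraries are matched by sex, which is a term of the fit.

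Counts of all genes called varied. For St6galnac6-/-, B3galt5D116A, B3gnt7-/- and the mean of the mutants against wild-type they were 10, 9, 6 and 21, and 0, 1, 2 and 1 without a filter on low values, where more genes enter the adjustment. For St6galnac6-/- against B3galt5D116A, St6galnac6-/- against B3gnt7-/- and B3galt5D116A against B3gnt7-/- they were 3, 5 and 1, and 1, 1 and 0 without that filter. Leaving out 1 library gave 2 to 31, 3 to 13, 3 to 36, 2 to 68, 1 to 10, 2 to 39 and 0 to 35 in these 7 comparisons. Without the St6galnac6-/- male and B3gnt7-/- female, chosen after seeing the data, they were 22, 14, 15, 110, 18, 20 and 13. Without a sex term St6galnac6-/-, B3galt5D116A and the mean of the mutants gave 23, 16 and 40, St6galnac6-/- against B3galt5D116A 7 and B3galt5D116A against B3gnt7-/- 2. The fit of only the 4 libraries compared gave 49 for St6galnac6-/-, 10 for St6galnac6-/- against B3galt5D116A and 8 for St6galnac6-/- against B3gnt7-/-. A mean of at least 5 FPKM gave 3 for B3gnt7-/- and 2 for St6galnac6-/- against B3gnt7-/-. A pseudocount of 0.1 gave 5 for St6galnac6-/- against B3galt5D116A, and a pseudocount of 5 gave 3 for St6galnac6-/- against B3gnt7-/-. Quantile normalization gave 5 for St6galnac6-/- and 0 for B3galt5D116A against B3gnt7-/-. The cause of these shifts was not tested. Where a genotype keeps 1 library, that library is assumed to vary like the others.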
